A study of Mus musculus with 6 samples.

Results

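The constitutive proteasome was examined in injured mouse motor neurons through the transcripts of its subunit genes. Members were the genes whose symbol is *Psma*, *Psmb*, *Psmc* or *Psmd* followed by a number, leaving out the immunoproteasome subunits *Psmb8*, *Psmb9* and *Psmb10*. This rule gave 36 of the 53858 genes in the count table. Of these, 16 are core genes (*Psma* and *Psmb*) and 20 are regulatory genes (*Psmc* and *Psmd*). The filter on low counts was passed by 34 of them, 14 core and 20 regulatory. The other 2 were *Psma8*, which encodes the alpha subunit of the testis form of the core, and *Psmb11*, which encodes the beta subunit of the thymus form. *Psma8* had 0 counts in each double-labelled pool, against 0, 0 and 7 counts in DiO-only pools 1, 2 and 3, and *Psmb11* had 0 counts in all 6 libraries. A count of 0 allows up to 3 counts, which corresponds to 0.457 to 1.00 CPM (read counts scaled to equal library totals) in a library and covers counting error only.

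All cells were motor neurons picked from the spinal cord of wild-type mice 6 days after a sciatic nerve crush, which both groups share. The dye DiO, placed proximal to the lesion on day 0, labelled injured motor neurons, and the dye DiI, placed distally on day 2, marked those whose regrowing axons had arrived there first. Double-labelled pools (DiO+/DiI+, n = 3) were compared with DiO-only pools (DiO+/DiI-, n = 3), each pool holding 10 to 15 picked cells by one statement of the labels and up to 20 by another. The labels give neither the age of the mice nor whether each pool is a separate animal, so every p-value reflects the spread among these 6 libraries, which may be a technical one. In pools, fewer cells of a type and less RNA per cell cannot be told apart.

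The 26S proteasome degrades proteins that carry ubiquitin chains. Its core particle is a barrel in which outer rings of alpha subunits gate the entrance and inner rings of beta subunits hold the proteolytic sites. The regulatory particle caps the barrel: its base carries a ring of ATPases that unfold the substrate, and its lid carries the enzyme that removes ubiquitin before degradation. In neurons the proteasome is known for its part in protein turnover at synapses and in axons, including axons that degenerate or regrow after a nerve injury. When proteasome activity falls, the transcription factor encoded by *Nfe2l1* is known to induce the subunit genes together through antioxidant response elements in their promoters.

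The libraries held 4981232, 2997714 and 6563403 counts in double-labelled pools 1, 2 and 3, and 6505086, 3747145 and 5196844 counts in DiO-only pools 1, 2 and 3. Motor neuron markers summed to 2294 to 4240 CPM in double-labelled pools and to 2572 to 4329 CPM in DiO-only pools, so the groups overlapped. Oligodendrocyte markers did not overlap in sum, with 1325 to 5608 CPM in double-labelled pools, against 229 to 629 CPM in DiO-only pools. By fold change 10 of 10 were higher in double-labelled pools, and for 8 of them the groups did not overlap, whereas those of *Mag* and *Cldn11* did. Astrocyte markers summed to 946 to 2173 CPM in double-labelled pools and 959 to 1073 CPM in DiO-only pools. Most of this sum came from *Aldoc* and *S100b* in every library. Of 7 astrocyte markers tested, 5 were higher in double-labelled pools, and *Slc1a2*, *Aqp4* and *Gja1* had groups that did not overlap, with log2 fold changes of 2.45, 2.53 and 2.73 (adjusted p by edgeR = 0.308, 0.609 and 0.742). *Aldh1l1* and *S100b* were lower, at -1.27 and -0.13, with overlapping groups. *Slc1a3* did not pass the filter, with 2, 2 and 0 counts in double-labelled pools 1, 2 and 3, against 4, 0 and 28 in DiO-only pools 1, 2 and 3. Microglial (44.4 to 149.5, against 73.7 to 103.9 CPM), endothelial (1.33 to 9.84, against 3.38 to 38.9 CPM) and interneuron markers (2.34 to 23.3, against 8.01 to 133 CPM) overlapped in sum between double-labelled and DiO-only pools. In every double-labelled pool 4 of 8 endothelial and pericyte markers (*Cdh5*, *Cldn5*, *Pdgfrb* and *Vtn*) and 1 of 7 interneuron markers (*Pax2*) had 0 counts. *Cldn5* had 0, 9 and 106 counts in DiO-only pools 1, 2 and 3, whereas the pericyte marker *Rgs5* had 34, 0 and 51 counts in double-labelled pools 1, 2 and 3, against 2, 5 and 27 counts in DiO-only pools 1, 2 and 3. Fewer genes were detected in double-labelled pools (16040 ± 407 genes) than in DiO-only pools (20250 ± 2640 genes; SD, n = 3 each), a difference with the smallest p that 3 against 3 allows (exact two-sided permutation test, p = 0.1). Mitochondrial transcripts took 4.03, 18.02 and 6.13% of the counts of double-labelled pools 1, 2 and 3, and 3.96, 10.8 and 5.06% of those of DiO-only pools 1, 2 and 3. The part of these differences in the results below was not tested.

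Subunit transcripts stood mostly lower in the double-labelled pools, by modest amounts that did not pass the test for any gene. Fold changes are log2 values from edgeR, double-labelled over DiO-only, and levels are CPM scaled with TMM factors (a library scaling in edgeR) unless stated. Of the 34 members tested, 30 had a fitted log2 fold change below 0, against 48.7% of the 12954 genes tested. By library, 17, 30 and 31 members lay below the DiO-only mean in double-labelled pools 1, 2 and 3, against 6, 22 and 16 in DiO-only pools 1, 2 and 3. When libraries were left out in turn, 22 (without double-labelled pool 3) to 33 members were lower. Members can vary together within a library, so they are not independent observations. The members' median was -0.33 with a range of -0.83 to 0.36, and the median of all genes was 0.02. No member passed an adjusted p of 0.05 in edgeR's quasi-likelihood test, where 0% of all genes passed, 753 of all genes had an unadjusted p under 0.05, and DESeq2 and limma voom called 76 and 0 genes. Without adjustment, 3 members were below 0.05, all lower in double-labelled pools, against 2.63% of all genes lower at that level. DESeq2 and limma voom, like edgeR, called 0 of the 34 members. The groups did not overlap for 4 members, *Psmd1*, *Psmd3*, *Psmd8* and *Psmd11*, all lower in double-labelled pools, against 7.07% of all genes. For 0 members did the double-labelled pools all lie above the DiO-only pools, against 5.86% of all genes. Restricted to the 6420 genes at or above the mean level of the lowest member, 51.5% were lower and the median was -0.02.

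**Figure D1:**
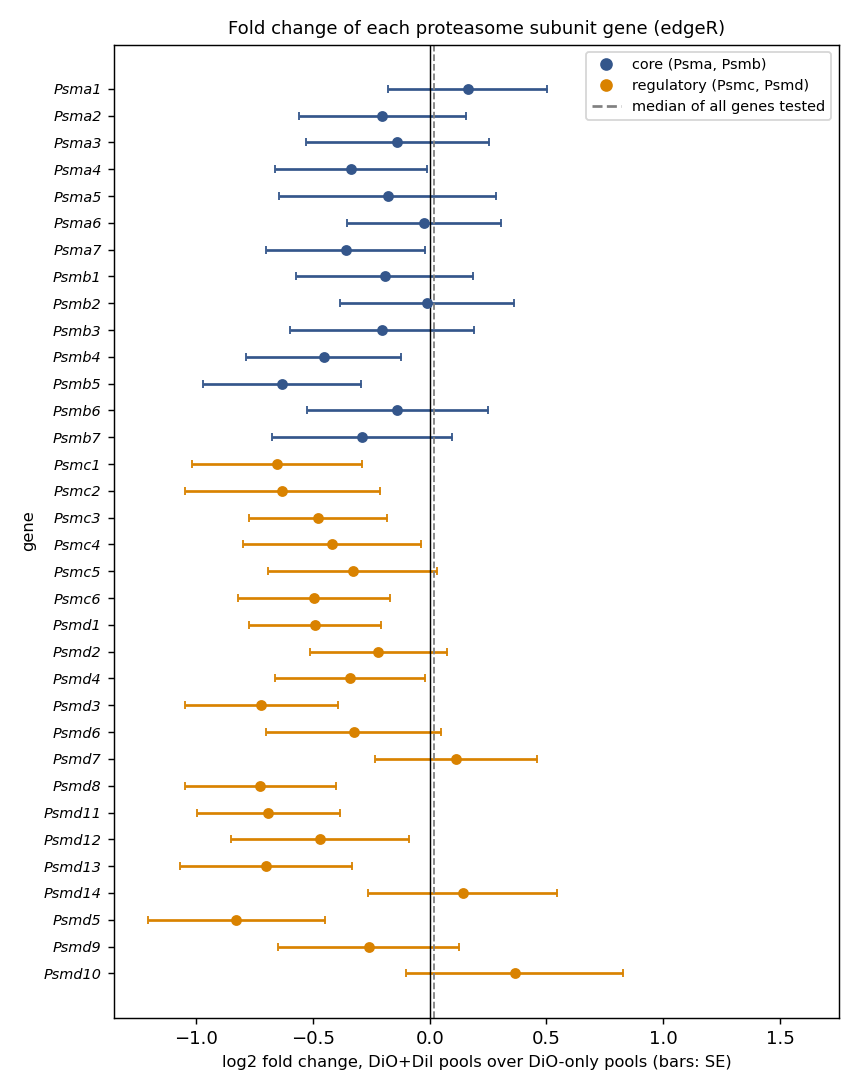
Log2 fold change of each of the 34 tested members, double-labelled over DiO-only pools, on the x axis, with bars for the standard error, core genes in blue and regulatory genes in orange. Most points lie left of 0, *Psma1*, *Psmd7*, *Psmd14* and *Psmd10* lie right of it, and the dashed line marks the median of all genes tested, 0.02.

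Core and regulatory members were counted apart. Of the 14 core members, 13 had a fold change below 0, with a median of -0.20, 0 below an unadjusted p of 0.05 and 0 with groups that did not overlap. Of the 20 regulatory members, 17 had a fold change below 0, with a median of -0.47, 3 below an unadjusted p of 0.05 and 4 with groups that did not overlap. By role, 6 of 7 alpha subunits (median -0.18), 7 of 7 beta subunits (median -0.20; 6 of 7 with total-count scaling, where *Psmb2* was at 0.047), 6 of 6 ATPases (median -0.49), 3 of 3 other base subunits (median -0.34), 6 of 8 lid subunits (median -0.58) and 2 of 3 base assembly chaperones (median -0.26) were lower in double-labelled pools. The difference between the core and the regulatory particle was not tested.

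**Figure D2:**
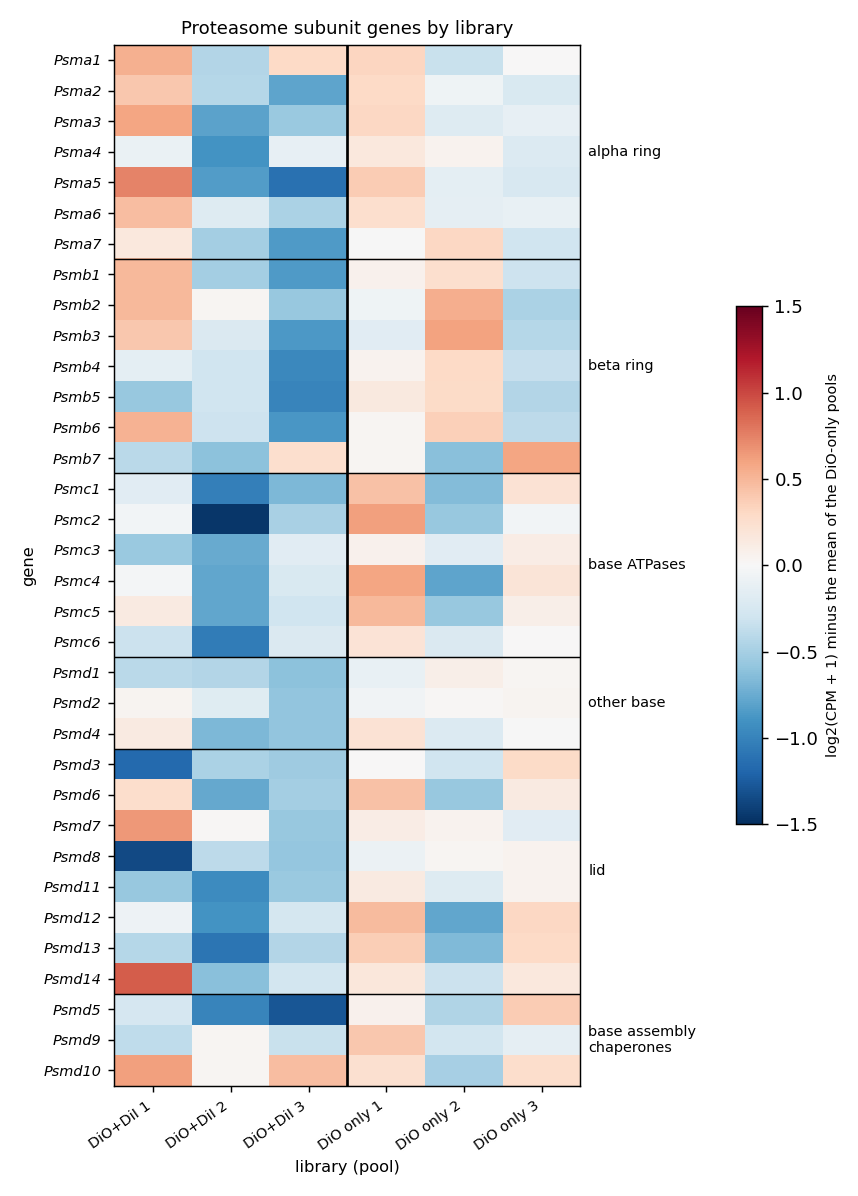
Heat map of log2(CPM + 1) of each tested member (rows, grouped by role) minus its mean over the DiO-only pools, in the 6 libraries (columns, double-labelled pools left). In double-labelled pool 1 core genes lie mostly above 0 and most regulatory genes below it, while double-labelled pools 2 and 3 lie below 0 for 30 and 31 of 34 members.

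Each double-labelled pool had its own profile. Core members had a median log2(CPM + 1), relative to the DiO-only mean, of 0.43, -0.44 and -0.82 in double-labelled pools 1, 2 and 3, against 0.10, 0.15 and -0.27 in DiO-only pools 1, 2 and 3. Regulatory members stood at -0.12, -0.76 and -0.49 in double-labelled pools 1, 2 and 3, against 0.21, -0.31 and 0.10 in DiO-only pools 1, 2 and 3. The regulatory median was thus below 0 in each double-labelled pool, whereas the core median was above 0 in pool 1 and below it in pools 2 and 3. The median of all genes stayed between -0.05 and 0.04 in every library. Of all genes tested, 35.2, 31.1 and 32.5% lay below every DiO-only pool in double-labelled pools 1, 2 and 3, and 31.3, 25.8 and 31.9% lay above every one. Double-labelled pool 1 exceeded all DiO-only pools for 7 of 14 core members and lay below all of them for 1, while it lay below all of them for 7 of 20 regulatory members and above for 3. Double-labelled pool 2 lay below all DiO-only pools for 8 core and 16 regulatory members, and above all of them for 0 of 34. Double-labelled pool 3 lay below all of them for 11 core and 10 regulatory members, and above for 1. The oligodendrocyte markers summed to 2873, 1325 and 5608 CPM in double-labelled pools 1, 2 and 3. Pool 3, the lowest for the core, thus held the most of them, but pool 1, the highest for the core, held more than pool 2. Their part in the core values was not tested.

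The direction of the core rested on single pools. Without double-labelled pool 3, 5 of 14 core members were lower and their median was 0.04. Without double-labelled pool 1, 14 of 14 core members were lower, with a median of -0.62, and 33 of 34 members were lower in all. The regulatory count was steadier, at 17 to 19 of 20 members lower whichever library was left out, with medians from -0.27 without DiO-only pool 1 to -0.59 without double-labelled pool 1.

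**Figure D3:**
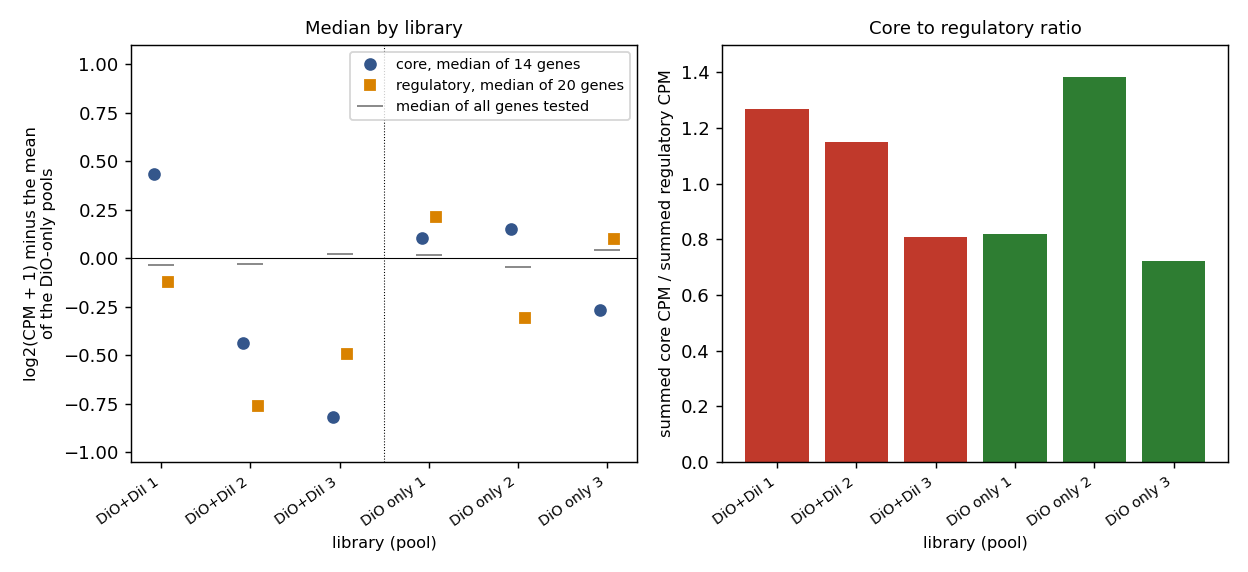
Left, median log2(CPM + 1) of core and regulatory members relative to the mean of the DiO-only pools, by library, with a grey dash for the median of all genes tested. Right, summed core CPM over summed regulatory CPM by library, which was 0.809 to 1.27 in double-labelled pools and 0.722 to 1.38 in DiO-only pools.

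Sums over genes gave the same order of libraries. The core members, with the untested *Psma8* and *Psmb11* included, summed to 5528, 3254 and 2732 CPM in double-labelled pools 1, 2 and 3, against 4571, 4946 and 3562 CPM in DiO-only pools 1, 2 and 3. The regulatory members summed to 4354, 2828 and 3377 CPM in double-labelled pools 1, 2 and 3, against 5570, 3577 and 4934 CPM in DiO-only pools 1, 2 and 3. Both sums overlapped between groups. All members together took 0.965, 0.554 and 0.695% of the counts of double-labelled pools 1, 2 and 3, and 1.07, 0.681 and 0.951% of those of DiO-only pools 1, 2 and 3. Summed core CPM over summed regulatory CPM was 1.08 ± 0.239 in double-labelled pools and 0.975 ± 0.356 in DiO-only pools (SD, n = 3 each), and its highest value, 1.38, was in DiO-only pool 2. Summed ATPase CPM over summed beta subunit CPM varied likewise, at 0.634, 0.547 and 1.13 in double-labelled pools 1, 2 and 3, and 1.17, 0.463 and 1.16 in DiO-only pools 1, 2 and 3. Core mRNAs are shorter than regulatory ones, with median lengths of 1162 and 1710 bases. Length was also set against each gene's deviation of log2(CPM + 1) from its mean over all libraries of both groups. Across the 34 members, Spearman rho was -0.24, -0.23 and 0.13 in double-labelled pools 1, 2 and 3, and 0.33, -0.22 and 0.52 in DiO-only pools 1, 2 and 3. Across all genes tested, rho stayed between -0.12 and 0.09 in every library. Genes of a library are not independent replicates, and the part of length in the core to regulatory ratio was not tested.

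The alpha ring genes overlapped between the groups without exception. The smallest p belonged to *Psma7* (ENSMUSG00000027566, mm10 chr2:180036374-180042433, minus strand), which encodes the alpha 4 subunit. It stood at 568, 359 and 283 CPM in double-labelled pools 1, 2 and 3, against 507, 633 and 413 CPM in DiO-only pools 1, 2 and 3. Double-labelled pools 2 and 3 lay below every DiO-only pool and pool 1 lay within their range, giving a log2 fold change of -0.36 ± 0.34 (SE; adjusted p by edgeR = 0.970). *Psma1*, the alpha 6 subunit gene, was the exception in the other direction, with 320, 162 and 272 CPM in double-labelled pools 1, 2 and 3, against 277, 175 and 222 CPM in DiO-only pools 1, 2 and 3. Its groups overlapped, with a log2 fold change of 0.16 ± 0.34 (SE; adjusted p by edgeR = 0.987). The other alpha subunit genes, *Psma2*, *Psma3*, *Psma4*, *Psma5* and *Psma6*, had log2 fold changes of -0.34 to -0.02 with overlapping groups. *Psma5*, the alpha 5 subunit gene, was spread widely within a group, with 524 CPM in double-labelled pool 1, against 175 and 143 CPM in double-labelled pools 2 and 3, and 265 to 407 CPM in DiO-only pools.

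The genes of the 3 catalytic beta subunits each had a fold change below 0 that did not pass the test. *Psmb5* (ENSMUSG00000022193, mm10 chr14:54614119-54618022, minus strand) encodes the subunit with chymotrypsin-like activity, the main target of proteasome inhibitor drugs. It stood at 91.9, 110.9 and 68.3 CPM in double-labelled pools 1, 2 and 3, against 151.7, 167 and 100.9 CPM in DiO-only pools 1, 2 and 3. Only double-labelled pool 2 reached into the DiO-only range. The means were 90.4 ± 21.3 CPM in double-labelled pools and 139.9 ± 34.6 CPM in DiO-only pools (SD, n = 3 each), a log2 fold change of -0.63 ± 0.34 (SE; adjusted p by edgeR = 0.885). *Psmb6* (ENSMUSG00000018286, mm10 chr11:70525367-70527858, plus strand), which encodes the caspase-like subunit, stood at 769, 433 and 293 CPM in double-labelled pools 1, 2 and 3, against 547, 690 and 409 CPM in DiO-only pools 1, 2 and 3. Double-labelled pool 1 was the highest library and pool 3 the lowest (log2 fold change -0.14 ± 0.39, SE; adjusted p by edgeR = 0.987). *Psmb7* (ENSMUSG00000026750, mm10 chr2:38588036-38644087, minus strand), which encodes the trypsin-like subunit, stood at 104.8, 90.4 and 166 CPM in double-labelled pools 1, 2 and 3, against 142, 89.9 and 209.6 CPM in DiO-only pools 1, 2 and 3. The groups overlapped almost fully (log2 fold change -0.29 ± 0.38, SE; adjusted p by edgeR = 0.978). Its exons overlap those of *Nek6* on the opposite strand over 11.8% of their length, and *Nek6* carried 4051 counts in all, against 4459 for *Psmb7*, so reads of the shared stretch are uncertain without strand. The structural beta subunit genes *Psmb1*, *Psmb2*, *Psmb3* and *Psmb4* had log2 fold changes of -0.19, -0.01, -0.20 and -0.45, with overlapping groups.

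The ATPase genes shared a direction. Each of *Psmc1* to *Psmc6*, which encode the ring that unfolds substrates and opens the core, had a fold change below 0, between -0.65 and -0.33, and for each the groups overlapped. *Psmc1* (ENSMUSG00000021178, mm10 chr12:100110154-100123405, plus strand) had the smallest p of these, with 292, 160 and 205 CPM in double-labelled pools 1, 2 and 3, against 446, 208 and 380 CPM in DiO-only pools 1, 2 and 3. Double-labelled pool 1 lay above DiO-only pool 2, and the other double-labelled pools lay below every DiO-only pool. Over the 6 ATPase genes the median log2(CPM + 1) relative to the DiO-only mean was -0.10, -0.90 and -0.27 in double-labelled pools 1, 2 and 3, against 0.46, -0.57 and 0.10 in DiO-only pools 1, 2 and 3. The log2 fold change of *Psmc1* was -0.65 ± 0.37 (SE; adjusted p by edgeR = 0.899). *Psmc2*, *Psmc3*, *Psmc4*, *Psmc5* and *Psmc6* had log2 fold changes of -0.63, -0.48, -0.42, -0.33 and -0.50.

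The remaining base subunits include the scaffolds and a ubiquitin receptor. *Psmd1* (ENSMUSG00000026229, mm10 chr1:86064387-86139151, plus strand), one of the large scaffold subunits of the base, stood at 151, 147 and 130.4 CPM in double-labelled pools 1, 2 and 3, against 185, 212 and 205 CPM in DiO-only pools 1, 2 and 3. The groups did not overlap and were tight, at 142.9 ± 11.1 CPM in double-labelled pools and 200.7 ± 14.2 CPM in DiO-only pools (SD, n = 3 each), yet the fold change of -0.49 ± 0.28 (log2, SE) did not pass the test (edgeR adjusted p = 0.909). *Psmd2*, the other large scaffold gene, stood at 253, 218 and 164 CPM in double-labelled pools 1, 2 and 3, against 237, 248 and 253 CPM in DiO-only pools 1, 2 and 3, so that double-labelled pools 2 and 3 were the lowest (log2 fold change -0.22 ± 0.29, SE; adjusted p by edgeR = 0.978). *Psmd4*, whose product binds ubiquitin chains, stood at 373, 213 and 225 CPM in double-labelled pools 1, 2 and 3, against 395, 295 and 338 CPM in DiO-only pools 1, 2 and 3. Double-labelled pool 1 alone lay within the DiO-only range (log2 fold change -0.34 ± 0.32, SE; adjusted p by edgeR = 0.970).

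The lid held the members of smallest p and also members that were higher. *Psmd11* (ENSMUSG00000017428, mm10 chr11:80428615-80473248, plus strand) encodes a lid subunit that braces the regulatory particle against the core. It stood at 82.0, 63.0 and 82.3 CPM in double-labelled pools 1, 2 and 3, against 134, 107 and 126 CPM in DiO-only pools 1, 2 and 3. Every double-labelled pool lay below every DiO-only pool, and the mean was 61.9% of that of the DiO-only pools. The log2 fold change was -0.69 ± 0.31 (SE; edgeR unadjusted p = 0.0441, adjusted p = 0.833).

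*Psmd3* and *Psmd8*, lid subunit genes chosen here after their values were seen, had groups that did not overlap either. *Psmd3* (ENSMUSG00000017221, mm10 chr11:98682554-98695979, plus strand) stood at 84.3, 137 and 132 CPM in double-labelled pools 1, 2 and 3, against 192, 155 and 234 CPM in DiO-only pools 1, 2 and 3. *Psmd8* (ENSMUSG00000030591, mm10 chr7:29174188-29180701, minus strand) stood at 109, 214 and 188 CPM in double-labelled pools 1, 2 and 3, against 264, 288 and 291 CPM in DiO-only pools 1, 2 and 3. For both genes double-labelled pool 1 was the lowest library, although that pool was above the DiO-only mean for most core members. Their log2 fold changes were -0.72 ± 0.33 and -0.72 ± 0.32 (SE; adjusted p by edgeR = 0.851 and 0.847).

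Double-labelled pool 1 was high for other lid genes. *Psmd14* (ENSMUSG00000026914, mm10 chr2:61711694-61800376, plus strand), which encodes the deubiquitinase of the lid, stood at 354, 123 and 156 CPM in double-labelled pools 1, 2 and 3, against 212, 151 and 211 CPM in DiO-only pools 1, 2 and 3. *Psmd7*, whose product pairs with that of *Psmd14* in the lid, stood at 331, 214 and 142 CPM in double-labelled pools 1, 2 and 3, against 229, 219 and 188 CPM in DiO-only pools 1, 2 and 3. In both genes double-labelled pool 1 was the highest library and the other double-labelled pools lay at or below the middle DiO-only pool. The log2 fold changes were 0.14 ± 0.40 for *Psmd14* and 0.11 ± 0.35 for *Psmd7* (SE; adjusted p by edgeR = 0.987 for each). The other lid genes, *Psmd6*, *Psmd12* and *Psmd13*, had log2 fold changes of -0.33, -0.47 and -0.70 with overlapping groups.

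**Figure D4:**
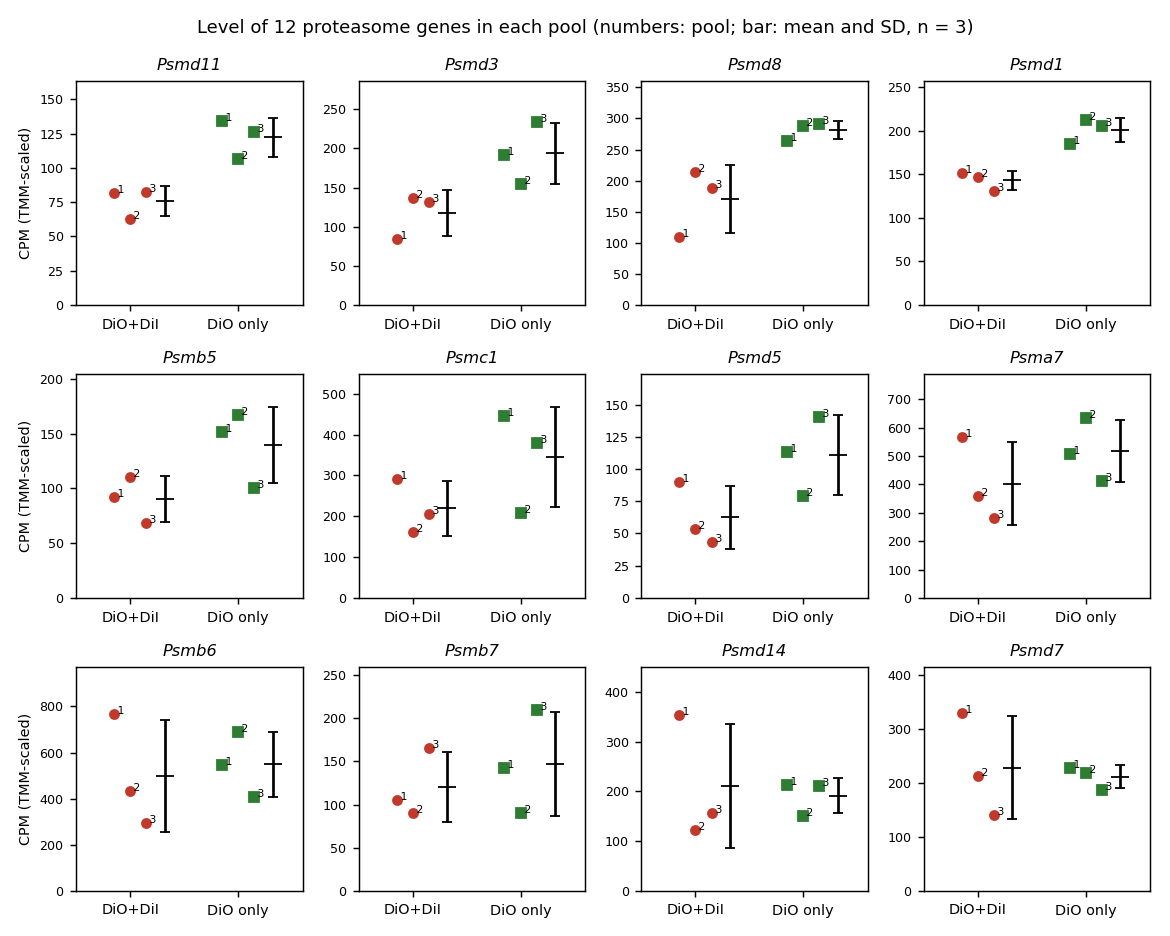
CPM (TMM-scaled) of named members in each library, double-labelled pools left of DiO-only pools in each panel, with a line for the group mean and a bar for the SD (n = 3 each). *Psmd1* and *Psmd11* show groups that do not overlap, whereas *Psmb6* and *Psmd14* show double-labelled pool 1 as the highest library.

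The base assembly chaperones, which help to build the ATPase ring and leave the finished particle, ran in both directions. *Psmd5* (ENSMUSG00000026869, mm10 chr2:34849734-34874968, minus strand) had the lowest fold change of all members. It stood at 90.2, 53.8 and 43.7 CPM in double-labelled pools 1, 2 and 3, against 113, 78.8 and 140.7 CPM in DiO-only pools 1, 2 and 3. Double-labelled pool 1 lay within the DiO-only range and the others below it (log2 fold change -0.83 ± 0.38, SE; adjusted p by edgeR = 0.858). *Psmd10*, also known as gankyrin, had the highest fold change of the members, with 27.3, 17.9 and 24.4 CPM in double-labelled pools 1, 2 and 3, against 20.9, 12.03 and 21.1 CPM in DiO-only pools 1, 2 and 3. Its groups overlapped (log2 fold change 0.36 ± 0.46, SE; adjusted p by edgeR = 0.978). *Psmd9* stood at 27.7, 37.3 and 28.8 CPM in double-labelled pools 1, 2 and 3, against 48.9, 30.1 and 33.2 CPM in DiO-only pools 1, 2 and 3 (log2 fold change -0.26). A non-coding gene on the opposite strand covers 25.5% of the exon length of *Psmd9*.

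Levels can be set between genes only per length, here as CPM per kb of the principal mRNA. The longest of equally ranked transcripts was used, which gave 2911 and 2846 bases for *Psma2* and *Psma3*. The other tested alpha subunit genes had 914 to 1239 bases, so levels per kb rest on this choice of transcript. On this scale *Psmb6* stood highest in both groups, at 624 ± 307 in double-labelled pools and 687 ± 176 in DiO-only pools (SD, n = 3 each). *Psmb3*, *Psmb2* and *Psma7* followed, at 534, 545 and 441 CPM per kb in double-labelled pools and 616, 550 and 566 CPM per kb in DiO-only pools. Within each group these 4 genes differed by less than the SD of *Psmb6*. *Psmc5* was the highest regulatory gene, at 308 CPM per kb in double-labelled pools and 387 CPM per kb in DiO-only pools. *Psmb5* and *Psmb7* stood well below *Psmb6*, at 100.5 and 103.8 CPM per kb in double-labelled pools and 155.6 and 126.9 CPM per kb in DiO-only pools. The lowest were *Psmd11*, *Psmd10*, *Psmd5* and *Psmd9*, at 26.6, 16.2, 14.2 and 12.1 CPM per kb in double-labelled pools and 43.0, 12.6, 25.2 and 14.4 CPM per kb in DiO-only pools. *Psmd10*, *Psmd5* and *Psmd9* encode chaperones that are not part of the finished particle. The median per kb was 200 for core members in double-labelled pools and 207.6 in DiO-only pools, and for regulatory members 103.2 in double-labelled pools and 129 in DiO-only pools.

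**Figure D5:**
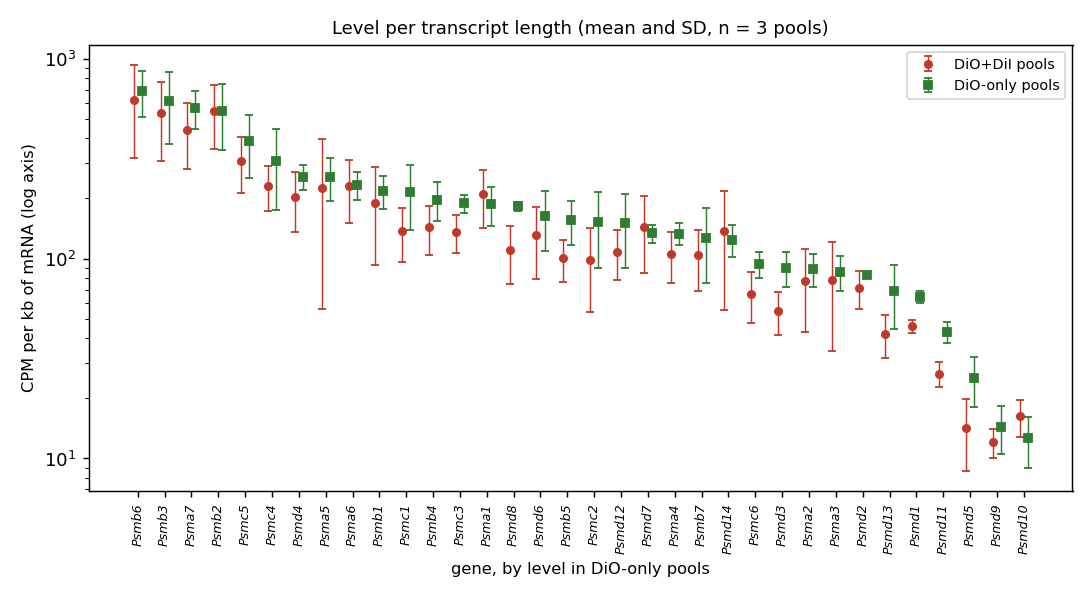
Level of each tested member per kb of its principal mRNA (CPM per kb, log axis), ordered by the DiO-only mean, with points for the group means and bars for the SD (n = 3 each). *Psmb6* stands highest in both groups, at 624 in double-labelled and 687 in DiO-only pools, and the chaperone genes *Psmd5*, *Psmd9* and *Psmd10* stand lowest.

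Members varied more between the double-labelled pools. The median SD of log2(CPM + 1) was 0.457 across double-labelled pools and 0.327 across DiO-only pools, and it was larger in double-labelled pools for 25 of 34 members (73.5%). The same held for 69.4% of all genes tested, with median SDs of 0.680 in double-labelled pools and 0.449 in DiO-only pools. Among core members the SD was larger in double-labelled pools for 12 of 14, and among regulatory members for 13 of 20.

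Promoter sequence was read from RefSeq on GRCm38.p6, as 250 bases before to 50 bases after the gene start, for the 29 members with an entry. The antioxidant response element, the site through which *Nfe2l1* acts, was searched as TGACNNNGC on both strands, and a match is a description, not a binding site. It was found in 5 of 29 members (17.2%), 2 of 12 core and 3 of 17 regulatory, against 3781 of 27025 genes with a window (14%), a share near that of the members. The matching stretches are shown because they hold the letters searched for, in 5' to 3' order on the strand of the gene with the match in capitals. A match on the other strand appears as its reverse complement.
Psmb5, chr14:54618004-54618072, minus strand: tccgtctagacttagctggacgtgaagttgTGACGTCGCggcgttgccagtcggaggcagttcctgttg
Psmb6, chr11:70525318-70525356, plus strand: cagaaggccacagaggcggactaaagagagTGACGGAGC
Psmc6, chr14:45329574-45329635, plus strand: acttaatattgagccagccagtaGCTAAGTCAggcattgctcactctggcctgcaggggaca
Psmd12, chr11:107479278-107479319, plus strand: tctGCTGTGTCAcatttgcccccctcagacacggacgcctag
Psmd9, chr5:123228129-123228189, plus strand: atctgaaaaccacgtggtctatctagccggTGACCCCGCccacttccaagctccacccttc
The 5 members with a match had log2 fold changes of -0.63, -0.14, -0.50, -0.47 and -0.26 in the order shown, within the range of the other members. Of other promoter elements, CCAAT on either strand was found in 12 of 29 members (41.4%), against 41.1% of all genes with a window. GGGCGG, the box bound by Sp1, was found on either strand in 18 of 29 members (62.1%), against 38.2% of all genes with a window. It was found in 5 of 12 core and 13 of 17 regulatory members. The genes with a window include genes not expressed in these cells, and the share among expressed genes was not computed. Matches were counted whether or not they overlapped a match of another motif.

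Other genes of the pathway did not pass the test either. Of 43 genes in 7 context lists, 42 were found in the table and 39 were tested, of which 25 were lower and 14 higher in double-labelled pools, with a median log2 fold change of -0.18, 0 below an unadjusted p of 0.05 and 0 called by edgeR. Of the 39 tested, 3 had groups that did not overlap with double-labelled pools lower, against 7.07% of all genes, a similar share. With double-labelled pools higher there were 0, against 5.86% of all genes. The transcription factor gene *Nfe2l1* was nearly level, with 173, 242 and 249 CPM in double-labelled pools 1, 2 and 3, against 218, 258 and 194 CPM in DiO-only pools 1, 2 and 3 (log2 fold change -0.01 ± 0.30, SE; adjusted p by edgeR = 0.999). Its relative *Nfe2l2*, the main regulator of the antioxidant response, was low, with 3.29, 3.29 and 1.47 CPM in double-labelled pools 1, 2 and 3, against 8.90, 5.35 and 14.9 CPM in DiO-only pools 1, 2 and 3. These groups did not overlap (log2 fold change -1.87 ± 0.88, SE; adjusted p by edgeR = 0.870). *Mafk*, whose product dimerises with both factors, did not overlap either. It had 0.822, 1.83 and 4.42 CPM in double-labelled pools and 5.54, 9.35 and 5.67 CPM in DiO-only pools. These levels rest on 4, 5 and 33 counts in double-labelled pools 1, 2 and 3. DiO-only pools 1, 2 and 3 had 38, 28 and 33 counts. The difference did not pass the test (adjusted p by edgeR = 0.949). *Mafg*, of the same list, was more abundant, with means of 53.0 CPM in double-labelled pools and 54.9 CPM in DiO-only pools. Of the 8 transcription control genes tested, 7 were lower, with a median of -0.23, but these include *Nfe2l1*, *Mafg* and *Keap1*, nearly level at -0.01, -0.05 and -0.05.

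Of 6 ubiquitin precursor and ubiquitin-activating enzyme genes, 5 were lower, with a median of -0.45. *Ubb*, a polyubiquitin gene, stood at 5991, 4730 and 2489 CPM in double-labelled pools 1, 2 and 3, against 5392, 11810 and 4543 CPM in DiO-only pools 1, 2 and 3. DiO-only pool 2 was the highest library and the groups overlapped.

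Genes for core assembly, activators and associated proteins showed no common direction. Of 5 core assembly genes 2 were lower, with a median of 0.47. *Psmg1*, an assembly chaperone of the alpha ring, stood at 53.2, 6.95 and 21.3 CPM in double-labelled pools 1, 2 and 3, against 14.3, 9.69 and 10.7 CPM in DiO-only pools 1, 2 and 3 (log2 fold change 1.23 ± 0.66, SE; adjusted p by edgeR = 0.885). Without double-labelled pool 1 the log2 fold change was 0.29, and with voom it was 0.40. *Psmg2*, its partner, had a log2 fold change of 0.47, and *Pomp*, the maturation factor, one of -0.03. Of 5 activator and inhibitor genes 2 were lower and 3 higher, with *Psme4*, an activator gene, at -0.30 and *Psmf1*, an inhibitor gene, at 0.29. Of 13 associated genes 7 were lower, with a median of -0.18. *Txnl1*, which encodes a thioredoxin bound to the regulatory particle, stood at 117, 91.5 and 126 CPM in double-labelled pools 1, 2 and 3, against 162, 138 and 200.5 CPM in DiO-only pools 1, 2 and 3, without overlap (log2 fold change -0.58 ± 0.31, SE; adjusted p by edgeR = 0.885). *Ubqln2*, a shuttle for ubiquitylated proteins, had a log2 fold change of -0.49, and *Adrm1*, a ubiquitin receptor gene, one of -0.51 with overlapping groups. *Akirin2*, whose product is known to bring proteasomes into the nucleus, had one of -0.32.

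The immunoproteasome subunits, which replace the catalytic beta subunits in immune cells and after interferon, were near the detection limit apart from *Psmb10*. *Psmb10* stood at 56.9, 36.6 and 18.1 CPM in double-labelled pools 1, 2 and 3, against 35.01, 63.1 and 33.3 CPM in DiO-only pools 1, 2 and 3 (log2 fold change -0.23 ± 0.47, SE; adjusted p by edgeR = 0.987). *Psmb8* had 0, 13 and 0 counts in double-labelled pools 1, 2 and 3, against 4, 6 and 3 counts in DiO-only pools 1, 2 and 3, and did not pass the filter. *Psmb9* had 28 counts in double-labelled pool 1 and 0 in every other library, and did not pass the filter either.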

How the data were processed

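RNA was sequenced from 6 libraries of picked motor neurons, with cDNA amplified by the SMART-Seq HT chemistry in 20 PCR cycles and without named molecular identifiers, per the labels' protocols. The deposited values are read counts per gene, not normalised. Per the submitters' processing notes the authors used FastQC, HISAT2 and HTSeq with mm10; their versions, annotation, strand use and handling of multiply mapped reads are not stated there. The labels speak of 3 batches without assigning libraries to them, so how batch relates to group is not known.

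Members and gene lists were chosen with earlier results of these data known. Counts were fitted in R 4.3.3 with edgeR 4.0.16: filterByExpr by group kept 12954 genes with 99.2% of counts, TMM scaling, robust quasi-likelihood F-test, two-sided, with Benjamini-Hochberg adjustment over all genes tested and calls at 0.05. Replicates had a common biological coefficient of variation of 0.587. SEs were computed as the absolute fold change over the root of F. Marker sums and shares of counts use total counts. The total counts per library ran from 2997714 to 6563403. Positions and mRNA lengths come from GENCODE M21 on GRCm38 (mm10), 1-based, matched for 100% of identifiers, and near-identical copies were searched with blastn 2.17.0 (at least 97% identity over 150 bases). Copies of 8 members were found; for 7 of them the copies were in the table, with at most 1.55% of the member's counts, and the count of the *Psmb3* copy was not analysed here. In addition, 9 members share exon bases with another gene.

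Values per library are given for the member of smallest p in each role group, for *Psmb5*, *Psmb6*, *Psmb7*, *Psmd14*, *Psmd2* and *Psmd4*, for every member that was higher, for those that did not pass the filter, for up to 2 genes of smallest p in each context list, and for *Nfe2l1*, *Psmb8*, *Psmb9*, *Psmb10*, *Pomp*, *Psme4* and *Adrm1*, of which *Pomp*, *Psme4*, *Adrm1* and some others are given by fold change only. A context gene that this rule chose is not reported here. *Psmd3*, *Psmd8*, *Psmd9* and *Psma5* were given per library after their values were seen. Alternatives were RLE and total-count scaling, no filter, at least 10 counts in 5 libraries, limma 3.58.1 voom with quality weights, DESeq2 1.42.0, a replicate block, and leaving out each library; DESeq2 without a filter was an alternative chosen after seeing the data. Figures were drawn with matplotlib 3.10.9.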

Additional observations from a re-analysis of the deposited data

How the results depend on the processing

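No member was called under any alternative. The count of all genes called moved to 79 without a low-count filter, 76 with DESeq2, 75 with DESeq2 without a filter (chosen after seeing the data) and 23 with the replicate block, against 0. The count of members lower at an unadjusted p under 0.05 was 1 with RLE scaling, 0 with total-count scaling, 0 with DESeq2 without a filter, 8 with voom and 8 with the replicate block, against 3, and 0 to 6 when libraries were left out in turn (0 without DiO-only pool 1 or 3, 1 without double-labelled pool 3, 5 without double-labelled pool 1, 6 without DiO-only pool 2). The count of core members lower ran from 5 to 14 over the same fits, 5 being without double-labelled pool 3. Under voom the median of all genes was -0.09 and that of the members -0.49. Without a low-count filter, over 28513 genes, the median of all genes was -0.345 and that of the members -0.354. With DESeq2 without a filter these medians were -0.313 and -0.318. In the main fit they were 0.02 and -0.33, so the median of all genes moved when low-count genes were let in, while that of the members hardly did. Among the 6420 genes at or above the mean level of the lowest member, the median in the main fit was -0.02. Same-numbered pools had deviation correlations of 0.08, 0.26 and 0.23 over all genes and of 0.25, 0.59 and 0.69 over the members. The value over all genes was too low in the first to pair them, although each library correlated best with its own number, a hint from the data only. Direction turned for *Psma1* (-0.14), *Psmd14* (-0.30), *Psmf1* (-0.059), *Psmb2* (0.066), *Pomp* (0.11) and *Nfe2l1* (0.076) with voom, for *Psmb2* (0.047), *Pomp* (0.026) and *Nfe2l1* (0.041) with total-count scaling, and for *Psmb2* (0.00023) and *Nfe2l1* (0.0011) with DESeq2 without a filter, all log2. Leaving out libraries in turn also turned it, over ranges of -0.054 to 0.38 for *Psma1*, -0.63 to 0.018 for *Psma2*, -0.70 to 0.092 for *Psma3*, -1.005 to 0.13 for *Psma5*, -0.34 to 0.15 for *Psma6*, -0.70 to 0.046 for *Psmb1*, -0.31 to 0.31 for *Psmb2*, -0.58 to 0.16 for *Psmb3*, -0.60 to 0.12 for *Psmb6*, -0.60 to 0.042 for *Psmb7*, -0.70 to 0.12 for *Psmb10*, -0.26 to 0.36 for *Psmd7*, -0.46 to 0.40 for *Psmd14*, -0.36 to 0.40 for *Pomp* and -0.12 to 0.13 for *Nfe2l1*. The cause was not tested. Every tested member had at least 36 counts in each library.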
